A study of Mus musculus with 13 samples.

Results

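Fatty acid oxidation and peroxisome genes were followed through endotoxin exposure in the mouse kidney. The set was chosen by gene symbol and holds 38 genes in 3 roles: mitochondrial oxidation (18 genes), peroxisomal oxidation (10 genes) and peroxisome assembly (10 genes). A gene counted as measured where the array annotation gave a probe set that symbol alone, and the probe set with the highest mean was used where a gene had several. By that rule 37 of the 38 genes were measured, out of 22180 genes in all, and Acsl1, the long-chain acyl-CoA synthetase that primes fatty acids for oxidation, was not analysed here.

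The samples were S1 segments, the first stretch of the proximal tubule, of male C57BL/6J mice, on Affymetrix whole-transcript arrays. The LPS/LPS group (5 arrays) was preconditioned with 0.25 mg/kg of lipopolysaccharide (LPS), the endotoxin of Gram-negative bacteria, and challenged 24 h later with 5 mg/kg. It was taken 24 h after the challenge. The LPS group (4 arrays) received the 5 mg/kg dose alone, into the peritoneum, and was taken at 24 h. The control group (4 arrays) received saline, and all groups carried the same strain background with no genetic alteration named. The labels do not say that each array came from another animal, nor how the segments were isolated, so p-values measure the spread between these arrays, which may be technical. All levels below are log2 values after robust multi-array averaging (RMA), all differences are log2 differences of group means from 1 limma fit over the 13 arrays, and all tests are two-sided.

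The proximal tubule depends on fatty acids for its energy. In mitochondria, acyl-CoA dehydrogenases of falling chain-length preference, a hydratase, a dehydrogenase and a thiolase shorten an acyl chain by repeated turns, and the electron-transferring flavoprotein passes the electrons to the respiratory chain. Peroxisomes shorten very long and branched chains through their own oxidases, bifunctional enzymes and thiolases, and catalase removes the hydrogen peroxide that the oxidases make. The organelle is built by peroxins, the Pex proteins, which insert its membrane proteins, import its enzymes and divide it. The nuclear receptor PPAR alpha drives many of these genes in rodent liver and kidney.

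Array-wide properties set what can be read from these genes. Array medians lay between 3.68 and 3.81, and the mean correlation across genes was 0.863 within groups and 0.858 between groups. The SD of an array's log2 values over genes ran from 0.965 to 1.08, and the arrays at or above the median SD, here called wide, were LPS/LPS replicate 1, LPS replicates 2, 3 and 4, and control replicates 1, 2 and 4. A background reference was set at 4.77, the level under which 95% of 1105 olfactory receptor genes had their mean, and 2207 genes (9.95%) had a mean above it. Of the 37 genes of the set, 9 had a mean above this reference over all arrays, and by group 7 did in LPS/LPS, 14 in LPS and 10 in control. Most of the set was therefore dim, and differences of dim genes can be compressed on this scale. Equal values to every decimal in 2 or more arrays, which RMA's median polish can give, occurred in 15 of the 37 genes (40.5%) and in 50.6% of all genes, and they shrink the apparent spread of a group.

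The S1 label was checked against markers. Of 15 measured S1 and S2 markers, 8 had a mean above the background reference, among them Slc34a1, the sodium phosphate cotransporter, at 9.23 ± 0.73 in LPS/LPS, 10.04 ± 0.64 in LPS, and 11.23 ± 0.23 in control. Here and below, ± gives the SD over the arrays of a group, of which there were 5 in LPS/LPS, 4 in LPS and 4 in control. Lrp2, the endocytic receptor megalin, stood at 4.11 ± 0.45 in LPS/LPS, 5.53 ± 1.57 in LPS, and 5.40 ± 0.81 in control. Slc5a2, a glucose transporter of S1 and S2, stood below the reference in all 13 arrays, at 4.13 ± 0.30 in LPS/LPS, 4.22 ± 0.083 in LPS, and 4.50 ± 0.16 in control. The summed level of the 15 markers ranged from 66.4 to 76.0 in LPS/LPS, 67.6 to 89.6 in LPS, and 76.1 to 87.9 in control. It was thus lower in LPS/LPS than in control, narrowly without overlap, and its part in the differences below was not tested. As in any bulk sample, fewer cells of a type and less RNA per cell cannot be told apart.

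LPS replicate 3 stood apart, so counts and the leading differences are also given without it. It had the highest level of the 13 arrays for 16 of the 37 genes (10 of mitochondrial oxidation, 3 of peroxisomal oxidation and 3 of peroxisome assembly), against 8.90% of all genes. The same array carried signal of later nephron segments, with Umod (uromodulin of the thick ascending limb) at 8.36 against 4.28 to 6.77 in the other 12 arrays. Slc12a1, the cotransporter of that limb, stood at 6.79 against 3.24 to 4.20, and Slc12a3, the cotransporter of the distal convoluted tubule, at 6.38 against 3.55 to 5.43. Over the 12 markers of these later segments and the collecting duct, 1 of which (Umod) had a mean above the reference, summed levels ranged from 48.5 to 51.2 in LPS/LPS, 48.4 to 63.9 in LPS, and 48.2 to 50.7 in control. Not every marker of this list was highest in LPS replicate 3: Kcnj1, Pvalb, Scnn1b and Slc4a1 lay within the range of the other arrays. The mean of the S1 and S2 markers was also highest in that array, at 5.97, with control replicate 1 next at 5.86. Lrp2 of the proximal tubule stood there at 7.53 against 3.57 to 6.57. Slc34a1 was higher there than in the other LPS arrays, but lower than in every control array. The part of later-segment or other cells in the results was not tested. Of the other cell types, 0 of 4 podocyte, 0 of 7 neutrophil, 1 of 7 endothelial, 1 of 11 macrophage and monocyte, 1 of 7 lymphocyte, 2 of 8 fibroblast and mural, and 2 of 6 S3 markers had a mean above the reference. The endothelial sum was 28.3 to 29.4 in LPS/LPS, 27.9 to 30.8 in LPS and 26.6 to 28.2 in control. It was thus higher in LPS/LPS than in control, again narrowly without overlap. That of macrophages and monocytes was 42.7 to 44.2 in LPS/LPS, 41.9 to 45.6 in LPS and 42.0 to 43.3 in control. The fibroblast and mural sum was 34.2 to 35.7 in LPS/LPS, 33.2 to 37.7 in LPS and 32.0 to 34.3 in control. Of its genes, Dcn stood at 6.64 in LPS replicate 3 against 3.02 to 3.58 in the other 12 arrays, while Acta2 had its lowest value there.

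**Figure D1:**
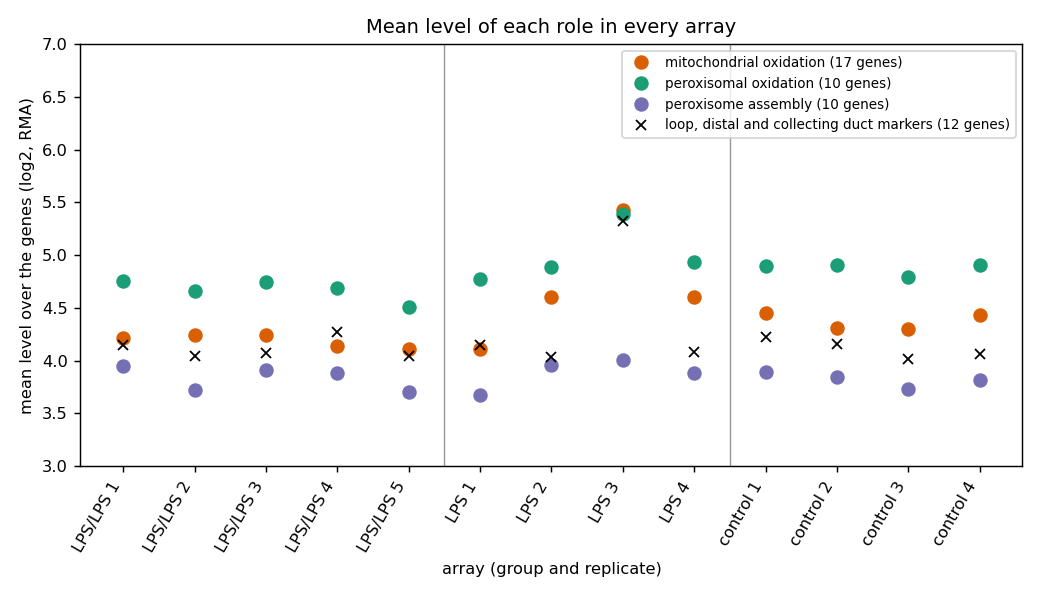
Mean log2 level (vertical axis) of the genes of each role in each array (horizontal axis), with the mean of 12 later-segment markers as crosses; vertical lines part LPS/LPS, LPS and control. In LPS replicate 3 the mitochondrial mean of 5.42 and the marker mean of 5.32 both lie above every other array.

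A single LPS dose was compared with saline to ask what endotoxin does to these pathways. The mitochondrial dehydrogenase genes Acadvl and Acadl and the peroxisomal genes Crot and Abcd3 had higher mean levels in LPS, with differences of 0.75 to 1.03, while Acaa1a, a peroxisomal thiolase, had a lower mean (difference -0.42). Of the 37 genes, 0 passed an adjusted p of 0.05, as did 0 of all 22180 genes (percent called 0), and the lowest adjusted p of the set was 0.510, for Acadl. At an unadjusted p under 0.05, 5 genes were higher (Acadvl, Acadl, Abcd3, Crot and Pex11a), or 13.5%, against 3.49% of all genes. At the same threshold 1 was lower (Acaa1a), or 2.70%, against 2.95%. Without LPS replicate 3 the counts were 5 higher (Acadvl, Acadl, Decr1, Abcd3 and Crot) against 3.38% of all genes, and 0 lower against 2.43%. With array spread as a covariate they were 2 higher (Acadvl and Acadl) against 3.42%, and 0 lower against 2.02%, and the median difference of the set was 0.016.

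The difference was above 0 for 25 of the 37 genes, against 47.1% of all genes, with a median of 0.11 against -0.017 over all genes. This leaning was not seen with LPS replicate 3 left out. Leaving out any other single array kept the median above 0, up to 0.19 without LPS replicate 1. The mean level of the mitochondrial genes in LPS replicate 1, at 4.11, lay below that of every control array. In LPS replicates 2 and 4 it lay above that of every control array, so the LPS arrays other than LPS replicate 3 differed from control in both directions. Without LPS replicate 3, 18 of 37 differences were above 0, against 49.0% of all genes, and the median was -0.017, against -0.0054 over all genes. Within the wide arrays (3 LPS, 3 control) the median was 0.14, and between the only narrow array of each group it was -0.034. The median was 0.32 over mitochondrial oxidation, 0.063 over peroxisomal oxidation and 0.026 over peroxisome assembly. With LPS replicate 3 left out these medians were 0.061, -0.032 and -0.024, and differences between roles were not tested. The groups did not overlap for 3 genes that were higher in LPS (Acadvl, Acadl and Crot), or 8.11% against 1.55% of all genes, and for 0 that were lower, against 1.6%.

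Promoter sequence was read for the genes whose promoters lie in the RefSeq table. The 250 bases before the annotated start were matched for 32 of the 38 genes, on the mouse assembly GRCm38.p6, and 5 of these genes had more than 1 window, which made 38 windows. Windows of Acadvl, Acadl, Acaa1a and Scp2 are printed because these genes lead the comparisons, and that of Hadhb because it shares its start region with Hadha. Capitals mark AGGTCA, the core letters bound by nuclear receptors such as PPAR alpha, or GGGCGG, the letters of the GC box, on either strand (TGACCT and CCGCCC on the opposite one). Windows run 5′ to 3′ on the gene's strand: chr11:70015429-70015678 minus for Acadvl, chr1:66863310-66863559 minus for Acadl, chr9:119341044-119341293 plus for Acaa1a, chr4:108118548-108118797 minus for Scp2 and chr5:30155003-30155252 plus for Hadhb.
Acadvl: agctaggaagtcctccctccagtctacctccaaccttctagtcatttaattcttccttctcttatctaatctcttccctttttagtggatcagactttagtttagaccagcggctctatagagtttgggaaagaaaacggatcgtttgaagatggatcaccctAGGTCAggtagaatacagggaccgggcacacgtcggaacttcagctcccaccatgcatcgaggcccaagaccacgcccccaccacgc
Acadl: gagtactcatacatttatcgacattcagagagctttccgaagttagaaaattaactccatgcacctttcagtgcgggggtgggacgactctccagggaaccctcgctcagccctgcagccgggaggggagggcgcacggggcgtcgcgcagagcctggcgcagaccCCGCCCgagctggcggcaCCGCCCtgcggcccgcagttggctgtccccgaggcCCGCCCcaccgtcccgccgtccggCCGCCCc
Acaa1a: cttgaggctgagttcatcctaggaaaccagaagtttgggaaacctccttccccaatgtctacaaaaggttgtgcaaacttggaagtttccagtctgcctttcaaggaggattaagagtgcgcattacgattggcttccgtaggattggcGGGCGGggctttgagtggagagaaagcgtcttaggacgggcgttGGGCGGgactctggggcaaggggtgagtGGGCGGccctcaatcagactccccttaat
Scp2: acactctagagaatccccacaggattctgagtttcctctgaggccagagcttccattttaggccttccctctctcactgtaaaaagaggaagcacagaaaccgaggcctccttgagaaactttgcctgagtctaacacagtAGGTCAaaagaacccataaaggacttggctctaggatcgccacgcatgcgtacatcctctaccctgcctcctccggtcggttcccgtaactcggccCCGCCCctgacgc
Hadhb: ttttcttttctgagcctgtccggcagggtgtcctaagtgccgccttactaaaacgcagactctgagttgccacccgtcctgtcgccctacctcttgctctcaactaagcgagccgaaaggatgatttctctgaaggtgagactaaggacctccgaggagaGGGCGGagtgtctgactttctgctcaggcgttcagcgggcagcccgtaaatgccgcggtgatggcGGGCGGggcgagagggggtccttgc
The Acadvl window holds AGGTCA at -87 to -82 from the start and the Scp2 window holds it at -109 to -104. Acadl, which led with Acadvl, holds no AGGTCA and 4 GC boxes, and Acaa1a holds 3 GC boxes. Hadhb and Hadha lie head to head on chromosome 5, and their windows share 228 bases (chr5:30155003-30155230).

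A gene was counted where any of its windows held the motif. AGGTCA was found for 5 of the 32 genes (Acadvl, Acadm, Echs1, Scp2 and Cat), or 15.6%, against 15.8% of 27025 genes with a window. Its loose direct repeat AGGNCANAGGNCA, the form that PPAR alpha binds with its partner, was found for 0 of 32, against 0.400% of genes. GGGCGG was found for 21 of 32 (65.6%), against 35.4%, and CCAAT for 14 of 32 (43.8%), against 37.5%. The genes compared against were all those with a window, matched neither for GC content nor for expression, so these shares mark no trait of the set. A match is a description of letters in this window and says nothing about binding.

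Acadvl encodes the very-long-chain acyl-CoA dehydrogenase, the first enzyme of the spiral for the longest chains handled by mitochondria. Its levels were 4.91, 4.19, 4.51, 4.20 and 4.41 in LPS/LPS, 4.58, 5.83, 5.69 and 4.47 in LPS, and 4.31, 3.98, 4.33 and 4.04 in control. All 4 LPS arrays exceeded all 4 control arrays, and LPS replicates 2 and 3 stood over 1 log2 unit above the other LPS arrays. The difference of LPS from control was 0.98 (SE 0.28, adjusted p = 0.540), and 0.80 without LPS replicate 3. Acadl, the long-chain dehydrogenase, had levels of 3.52, 3.37, 3.48, 3.27 and 3.33 in LPS/LPS, 3.88, 4.06, 5.36 and 4.52 in LPS, and 3.86, 3.59, 3.38 and 3.37 in control. The LPS arrays again lay above every control array, by the smallest margin at LPS replicate 1 against control replicate 1. The difference was 0.91 (SE 0.25, adjusted p = 0.510), and 0.60 without LPS replicate 3 (adjusted p = 0.593). Acads, the short-chain dehydrogenase, had levels of 5.23, 4.95, 5.00, 5.07 and 5.17 in LPS/LPS, 5.33, 5.77, 5.49 and 5.52 in LPS, and 5.60, 4.85, 5.29 and 5.10 in control. Here control replicate 1 lay among the LPS arrays, and the difference was 0.32 (SE 0.16, adjusted p = 0.774).

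Among the peroxisomal genes, Crot encodes carnitine octanoyltransferase, which readies shortened chains for export to mitochondria. Its levels were 5.58, 4.57, 4.67, 4.34 and 4.61 in LPS/LPS, 5.01, 5.31, 5.20 and 5.27 in LPS, and 4.95, 4.43, 4.11 and 4.31 in control. The 4 LPS arrays lay close together and above every control array, and LPS/LPS replicate 1 was the highest of all arrays. The difference of LPS from control was 0.75 (SE 0.24, adjusted p = 0.590) and stayed at 0.75 without LPS replicate 3. Abcd3, the peroxisomal membrane transporter PMP70, had levels of 4.24, 4.03, 4.04, 4.17 and 4.41 in LPS/LPS, 4.36, 4.47, 6.91 and 5.26 in LPS, and 4.51, 4.25, 3.99 and 4.15 in control. LPS replicates 3 and 4 carried its difference of 1.03 (SE 0.41, adjusted p = 0.713), while the other LPS arrays lay within the range of the controls. The value was 0.47 when LPS replicate 3 was left out. Acaa1a, a peroxisomal thiolase, had levels of 4.48, 3.97, 4.16, 4.50 and 4.13 in LPS/LPS, 4.82, 4.58, 4.72 and 4.65 in LPS, and 4.73, 4.84, 5.42 and 5.44 in control. It was lower in LPS than in control by the mean, at -0.42 (SE 0.18, adjusted p = 0.751), with LPS replicate 1 just above control replicate 1. Its close paralog Acaa1b may share signal with it, so the member behind the value is uncertain.

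Of the assembly genes, Pex11a, which elongates peroxisomes before they divide, had levels of 3.46, 3.77, 3.36, 3.70 and 3.46 in LPS/LPS, 3.25, 4.33, 5.33 and 3.45 in LPS, and 3.81, 2.97, 2.93 and 3.45 in control. LPS replicates 2 and 3 were high, and the other LPS arrays lay among the controls. Its difference was 0.80 (SE 0.36, adjusted p = 0.764), and 0.38 without LPS replicate 3. Pex14, part of the docking complex for imported enzymes, had levels of 4.11, 3.82, 4.47, 4.44 and 3.93 in LPS/LPS, 4.01, 3.91, 3.55 and 3.96 in LPS, and 3.93, 4.36, 4.01 and 4.01 in control. The groups overlapped, and its difference of LPS from control was -0.22 (SE 0.18, adjusted p = 0.850). Pex3, the membrane anchor for newly made peroxisomal membrane proteins, had levels of 4.33, 4.34, 4.34, 4.34 and 3.89 in LPS/LPS, 4.51, 4.47, 4.52 and 4.39 in LPS, and 4.28, 4.26, 4.34 and 4.51 in control, with the same value in 4 arrays. Its difference of LPS from control was 0.13 (SE 0.13, adjusted p = 0.888). The remaining differences of assembly genes in this comparison lay between -0.19 (Pex7) and 0.13 (Pex16).

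**Figure D2:**
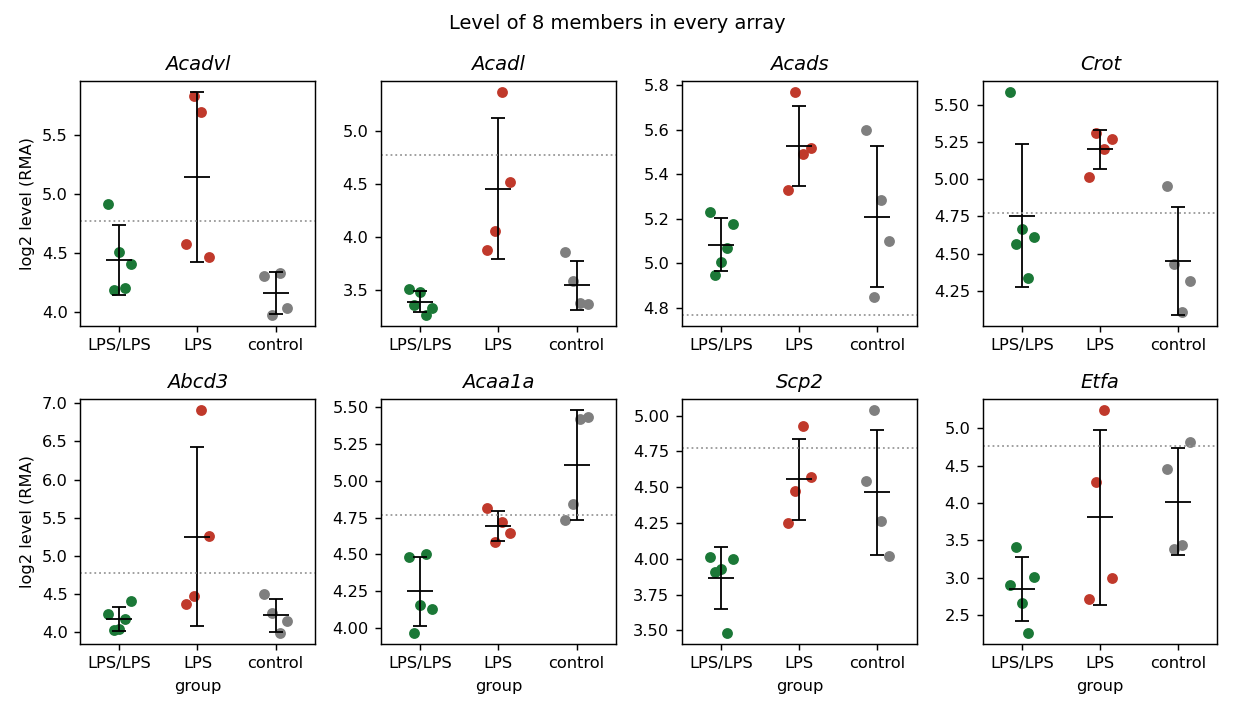
Log2 level (vertical axis) of 8 genes in each array, by group (LPS/LPS, LPS, control from left to right). Points are arrays, bars the mean and SD, and the dotted line the background reference of 4.77; Scp2 lies at or below 4.01 in every LPS/LPS array.

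Preconditioned and challenged mice were compared with saline to ask where the pathways stood when the same challenge followed a small dose. The peroxisomal genes Acaa1a and Scp2 and the electron-transferring flavoprotein genes Etfa and Etfb had lower mean levels in LPS/LPS, with differences of -1.17 to -0.60, and no gene of the set was higher at an unadjusted p under 0.05. An adjusted p of 0.05 was passed by 0 of the 37 genes, against 2 of all genes (0.00902%), and the lowest of the set was 0.400, for Acaa1a. At an unadjusted p under 0.05, 3 genes were lower (Etfa, Acaa1a and Scp2), or 8.11%, against 2.07% of all genes. In the other direction 0 were higher, against 2.62% of all genes. LPS replicate 3 enters this comparison only through the shared estimate of spread, and leaving it out gave 5 lower (Acaa2, Etfa, Etfb, Acaa1a and Scp2), or 13.5%, against 2.35%, and 0 higher, against 2.82%. The differences themselves were the same. With array spread as a covariate, 3 were lower (Etfa, Acaa1a and Scp2) against 2.76%, and 1 was higher (Crot) against 2.7%. The groups did not overlap for 3 genes, all lower in LPS/LPS (Etfb, Acaa1a and Scp2), or 8.11% against 0.699%, while 0 were higher, against 0.839%.

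The difference was below 0 for 24 of the 37 genes, against 9805 of all 22180 genes, and the median was -0.10, against 0.028 over all genes. By role, 12 of 17 mitochondrial and 7 of 10 peroxisomal oxidation genes had differences below 0, with medians of -0.12 and -0.10. Of the assembly genes, 5 of 10 were below 0, with a median of 0.018. Within the wide arrays, with 1 LPS/LPS and 3 control arrays, the median over the set was -0.049, and within the narrow arrays, with 4 and 1, it was -0.054. The summed S1 and S2 markers given above were lower in LPS/LPS as well.

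Etfa encodes the alpha subunit of the electron-transferring flavoprotein. Its levels were 2.90, 3.42, 2.66, 2.26 and 3.00 in LPS/LPS, 2.71, 4.29, 5.24 and 2.99 in LPS, and 4.45, 3.38, 3.43 and 4.81 in control. LPS/LPS replicate 2 lay between control replicates 2 and 3, and the other LPS/LPS arrays lay below every control. The difference of LPS/LPS from control was -1.17 (SE 0.46, adjusted p = 0.987), with a 95% interval of -2.17 to -0.18. Etfb, the beta subunit, had levels of 6.03, 6.20, 6.44, 5.43 and 6.01 in LPS/LPS, 5.62, 6.76, 8.41 and 6.45 in LPS, and 6.92, 6.62, 7.02 and 6.47 in control. Every LPS/LPS array lay below every control array, with a difference of -0.74 (SE 0.41, adjusted p = 0.987). Decr1, the mitochondrial dienoyl-CoA reductase needed for unsaturated chains, had levels of 5.71, 5.40, 5.57, 5.40 and 5.33 in LPS/LPS, 5.42, 5.78, 5.22 and 5.97 in LPS, and 4.76, 5.45, 5.35 and 5.36 in control. Control replicate 1 was the lowest array, and the difference of LPS/LPS from control was 0.25 (SE 0.18, adjusted p = 0.987).

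Acaa1a, whose arrays are given above, was lower in every LPS/LPS array than in any control array, with a difference of -0.86 (SE 0.17, adjusted p = 0.400) and an interval of -1.23 to -0.49. Its unadjusted p of 0.000216 by limma was the lowest of the set in any comparison. Scp2 encodes sterol carrier protein and, from a longer transcript, the thiolase for branched chains, and the probe set was named by gene symbol, so the transcript is not resolved. Its promoter is printed above, and its levels were 4.01, 3.91, 3.93, 3.48 and 4.00 in LPS/LPS, 4.25, 4.47, 4.93 and 4.57 in LPS, and 4.54, 5.04, 4.27 and 4.02 in control. The LPS/LPS arrays lay below all LPS and all control arrays, narrowly so at control replicate 4. The difference of LPS/LPS from control was -0.60 (SE 0.20, adjusted p = 0.987). Crot was at 0.30 (SE 0.23, adjusted p = 0.987), with LPS/LPS replicate 1 the array that stood highest.

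No assembly gene had an unadjusted p under 0.05 in this comparison. Pex2, a ubiquitin ligase of the import machinery, had levels of 3.55, 3.17, 3.20, 3.11 and 3.17 in LPS/LPS, 3.26, 3.19, 3.08 and 3.02 in LPS, and 3.21, 2.93, 2.79 and 3.17 in control, and a difference of LPS/LPS from control of 0.21 (SE 0.13, adjusted p = 0.987). Pex13, a docking protein beside Pex14, had levels of 4.08, 3.88, 3.85, 3.84 and 4.23 in LPS/LPS, 3.62, 3.88, 3.60 and 3.76 in LPS, and 3.76, 3.85, 3.96 and 3.50 in control, and a difference of 0.21 (SE 0.13, adjusted p = 0.987). In both genes the groups overlapped. Pex6, the ATPase that recycles the import receptor, was the 1 assembly gene with a mean above the background reference, and had levels of 5.47, 4.98, 5.46, 5.22 and 5.02 in LPS/LPS, 5.13, 5.34, 5.28 and 5.71 in LPS, and 5.39, 5.37, 5.37 and 5.57 in control. Its difference was -0.20 (SE 0.15, adjusted p = 0.987).

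The LPS/LPS group was also compared with LPS, from which it differed by the small first dose. No group received that dose alone, so its own lasting effect and a changed response to the challenge cannot be told apart. Dehydrogenases of long and short chains (Acadl, Acadvl, Acads), Hadh, the hydroxyacyl-CoA dehydrogenase, and the peroxisomal genes Scp2, Acaa1a and Abcd3 had lower mean levels in LPS/LPS, with differences of -1.14 to -0.44. None of the 37 genes passed an adjusted p of 0.05 (0 genes), against 14 of all genes (0.0631%), and the lowest adjusted p of the set was 0.160, for Acadl. At an unadjusted p under 0.05 those 7 genes were lower, or 18.9%, against 4.49% of all genes, and 0 were higher, against 4.13%. Without LPS replicate 3, 6 were lower (Acadl, Acads, Acaa1a, Scp2, Decr2 and Abcd3), or 16.2%, against 3.49% of all genes, and 0 were higher, against 2.67%. With array spread as a covariate, 2 were lower (Acadl and Acaa1a) against 3.53%, and 0 were higher against 2.4%, with a median of -0.11 over the set. The groups did not overlap for 6 genes, all lower in LPS/LPS (Acadl, Acads, Acaa1a, Scp2, Decr2 and Pex3), or 16.2% against 1.3%, while 0 were higher, against 1.1%.

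The difference was below 0 for 29 of the 37 genes, against 9027 of all 22180 genes, with a median of -0.23 against 0.049 over all genes. Without LPS replicate 3, 13 of 37 were above 0, against 57.0% of all genes, and the median was -0.17, against 0.035 over all genes. By role, 15 of 17 mitochondrial genes were below 0 (median -0.44, or -0.23 without LPS replicate 3), 8 of 10 peroxisomal oxidation genes (median -0.27, or -0.22) and 6 of 10 assembly genes (median -0.086, or -0.020). Within the wide arrays, with 1 LPS/LPS and 3 LPS arrays, the median over the set was -0.34. Within the narrow arrays, with 4 LPS/LPS arrays and LPS replicate 1 alone, it was 0.070, a value that rests on that 1 LPS array. All 3 comparisons share groups, so their values are set side by side and not counted as separate evidence.

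Acadl was lower in every LPS/LPS array than in any LPS array, with a difference of -1.06 (SE 0.24, adjusted p = 0.160). It was -0.76 without LPS replicate 3 (adjusted p = 0.242), and without LPS replicate 1 it was -1.25 and passed the threshold (adjusted p = 0.0390). Acads also showed no overlap, with a difference of -0.44 (SE 0.15, adjusted p = 0.447), and -0.45 without LPS replicate 3. For Acadvl the groups overlapped, since LPS/LPS replicate 1 exceeded LPS replicates 1 and 4, and the difference was -0.70 (SE 0.27, adjusted p = 0.481), or -0.52 without LPS replicate 3. Hadh differed by -1.14 (SE 0.45, adjusted p = 0.495), and by -0.56 when that array was left out. Scp2, with no overlap either, differed by -0.69 (SE 0.20, adjusted p = 0.340), and by -0.57 without LPS replicate 3. For Abcd3 the difference was -1.07 (SE 0.39, adjusted p = 0.455), and -0.52 without LPS replicate 3. Acaa1a differed by -0.44 (SE 0.17, adjusted p = 0.490), and by -0.43 without LPS replicate 3. Acaa1a thus had its lowest mean in LPS/LPS, at 4.25 ± 0.24 in LPS/LPS, 4.69 ± 0.10 in LPS, and 5.11 ± 0.37 in control.

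In the assembly role, Pex13 and Pex14 of the docking complex had higher means in LPS/LPS than in LPS. The differences were 0.26 (SE 0.13, adjusted p = 0.614) for Pex13 and 0.30 (SE 0.17, adjusted p = 0.647) for Pex14. Both were listed above by array, and their groups overlapped. Pex3 was lower in every LPS/LPS array than in any LPS array, with a difference of -0.23 (SE 0.13, adjusted p = 0.643), and LPS/LPS replicate 5 was its lowest array.

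**Figure D3:**
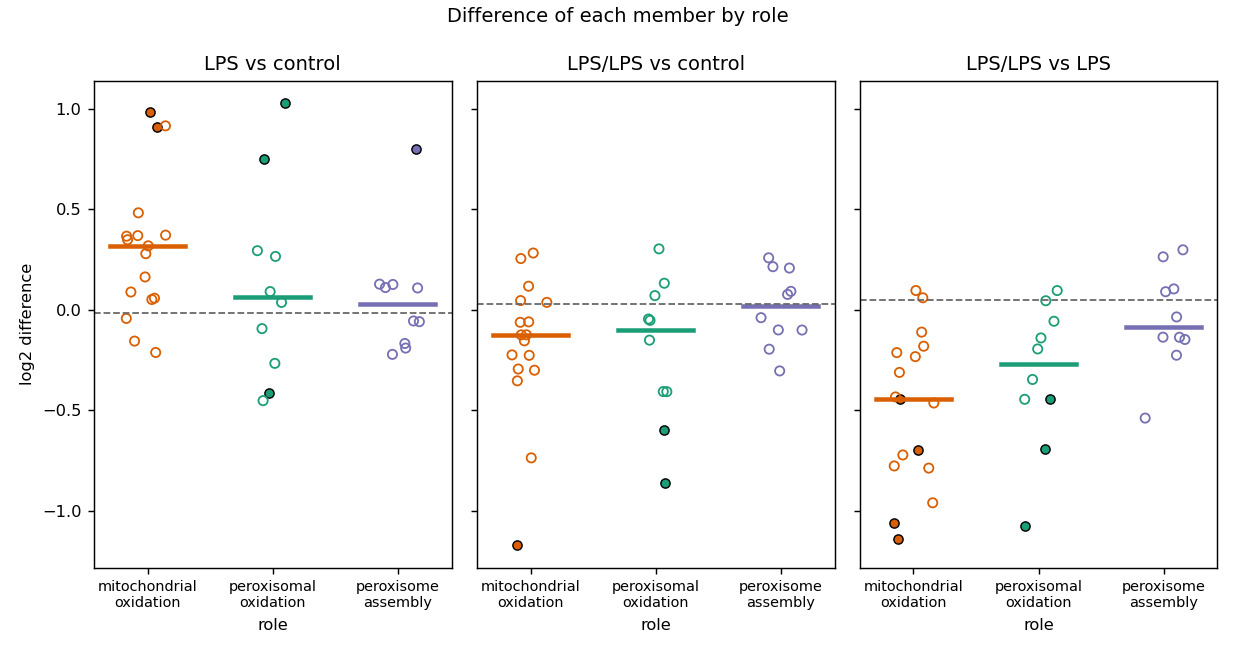
Log2 difference (vertical axis) of each gene by role in the 3 comparisons. Filled points have an unadjusted p under 0.05, thick bars are medians over the role and dashed lines the medians over all genes; mitochondrial medians are 0.32, -0.12 and -0.44, and assembly medians 0.026, 0.018 and -0.086.

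The other mitochondrial genes showed how far LPS replicate 3 reached. Acadm, the medium-chain dehydrogenase, stood at 7.34 in that array, and its means were 4.73 ± 0.31 in LPS/LPS, 5.51 ± 1.28 in LPS, and 5.03 ± 0.39 in control. Acaa2, the mitochondrial thiolase, stood at 6.99 there, and its means were 4.41 ± 0.23 in LPS/LPS, 5.13 ± 1.24 in LPS, and 4.76 ± 0.30 in control. LPS replicate 3 exceeded the mean of the other LPS arrays by 2.44 for Acadm and 2.48 for Acaa2, and without it neither LPS mean exceeded the control mean. Hadh had means of 3.83 ± 0.31 in LPS/LPS, 4.97 ± 1.35 in LPS, and 4.06 ± 0.28 in control, with 6.73 in LPS replicate 3. Eci2, an enoyl-CoA isomerase, had means of 3.27 ± 0.32 in LPS/LPS, 3.73 ± 0.57 in LPS, and 3.57 ± 0.36 in control. Cpt2, the carnitine palmitoyltransferase of the inner membrane, had means of 3.91 ± 0.17 in LPS/LPS, 4.14 ± 0.54 in LPS, and 3.86 ± 0.17 in control. Each of these had its highest value in LPS replicate 3.

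The trifunctional protein, which carries out the later steps for long chains, had LPS replicate 4 as its highest array. Hadha, its alpha subunit, had means of 4.44 ± 0.13 in LPS/LPS, 4.88 ± 0.64 in LPS, and 4.50 ± 0.11 in control. Hadhb, its beta subunit, had means of 2.73 ± 0.095 in LPS/LPS, 2.94 ± 0.32 in LPS, and 2.85 ± 0.19 in control, and its probe set was dim in all arrays. In LPS replicate 4 they stood at 5.71 for Hadha and 3.40 for Hadhb. Echs1, the short-chain hydratase, had means of 4.72 ± 0.28 in LPS/LPS, 4.63 ± 0.32 in LPS, and 4.78 ± 0.39 in control. Eci1, the other enoyl-CoA isomerase, had means of 4.03 ± 0.39 in LPS/LPS, 4.34 ± 0.65 in LPS, and 4.00 ± 0.049 in control, with the same value in 5 arrays. Crat, carnitine acetyltransferase and the only gene of the set with 2 probe sets, had means of 4.23 ± 0.42 in LPS/LPS, 4.17 ± 0.22 in LPS, and 4.12 ± 0.37 in control. Etfdh, which hands electrons from the flavoprotein to ubiquinone, had means of 3.66 ± 0.22 in LPS/LPS, 3.84 ± 0.38 in LPS, and 3.88 ± 0.31 in control. In none of these 6 genes was an unadjusted p under 0.05 in any comparison.

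Peroxisomal oxidation genes not yet given overlapped between groups, apart from Decr2 in LPS/LPS against LPS. Acox2, the oxidase for branched chains and bile acid precursors, had means of 4.21 ± 0.044 in LPS/LPS, 4.40 ± 0.60 in LPS, and 4.14 ± 0.26 in control. Acox3, a further oxidase of branched chains, had means of 4.82 ± 0.34 in LPS/LPS, 4.88 ± 0.080 in LPS, and 4.97 ± 0.34 in control. Acaa1b had means of 6.48 ± 0.82 in LPS/LPS, 6.43 ± 0.28 in LPS, and 6.88 ± 0.30 in control, with LPS/LPS replicates 1 and 5 over 1 log2 unit below the other LPS/LPS arrays. This spread within LPS/LPS exceeded the differences between groups. Hsd17b4, the bifunctional enzyme, had means of 4.34 ± 0.13 in LPS/LPS, 4.24 ± 0.15 in LPS, and 4.21 ± 0.27 in control, with the same value in 6 arrays. Decr2, the peroxisomal dienoyl-CoA reductase, had means of 4.17 ± 0.080 in LPS/LPS, 4.51 ± 0.36 in LPS, and 4.22 ± 0.26 in control. All LPS/LPS arrays of Decr2 lay below all LPS arrays. Cat, catalase, had means of 5.66 ± 0.60 in LPS/LPS, 5.80 ± 0.67 in LPS, and 6.06 ± 0.33 in control, with LPS/LPS replicate 5 at 4.70 and LPS replicate 3 at 6.77.

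For the import receptors and the remaining membrane factors the groups overlapped. Pex5, the receptor for most imported enzymes, had means of 3.73 ± 0.22 in LPS/LPS, 3.88 ± 0.10 in LPS, and 3.77 ± 0.18 in control. Pex7, the receptor for a smaller class that includes thiolases, had means of 2.66 ± 0.14 in LPS/LPS, 2.57 ± 0.15 in LPS, and 2.76 ± 0.71 in control. Control replicate 2 stood at 3.80 for Pex7, against 2.23 to 2.91 in the other arrays. Pex16, which works with Pex3 in membrane insertion, had means of 3.91 ± 0.19 in LPS/LPS, 3.95 ± 0.52 in LPS, and 3.82 ± 0.17 in control. Pex19, the chaperone that delivers membrane proteins to Pex3, had means of 3.64 ± 0.33 in LPS/LPS, 3.78 ± 0.37 in LPS, and 3.94 ± 0.64 in control, and control replicate 1 was its highest array. For these genes the largest difference was -0.30, for Pex19 in LPS/LPS against control, with an interval of -0.89 to 0.28, so changes of that size were not resolved.

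Spread within groups was itself uneven. The SD was highest in LPS for 21 of the 37 genes, against 37.2% of all genes, and for 14 of the 17 mitochondrial genes. Without LPS replicate 3 it was highest in LPS for 15 of 37, against 33.2% of all genes, and for 10 of 17. The median SD of the mitochondrial genes was 0.28 in LPS/LPS, 0.64 in LPS and 0.30 in control. For the assembly genes it was 0.20 in LPS/LPS, 0.18 in LPS and 0.19 in control. LPS replicate 3 minus the mean of the other LPS arrays had a median of 0.84 over the mitochondrial genes, 0.11 over the peroxisomal oxidation genes, -0.093 over the assembly genes and -0.054 over all genes. It exceeded 1 log2 unit for 12 of 37 genes (32.4%), against 3.26% of all genes. The S1 and S2 markers had a median of 0.58 on the same measure.

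**Figure D4:**
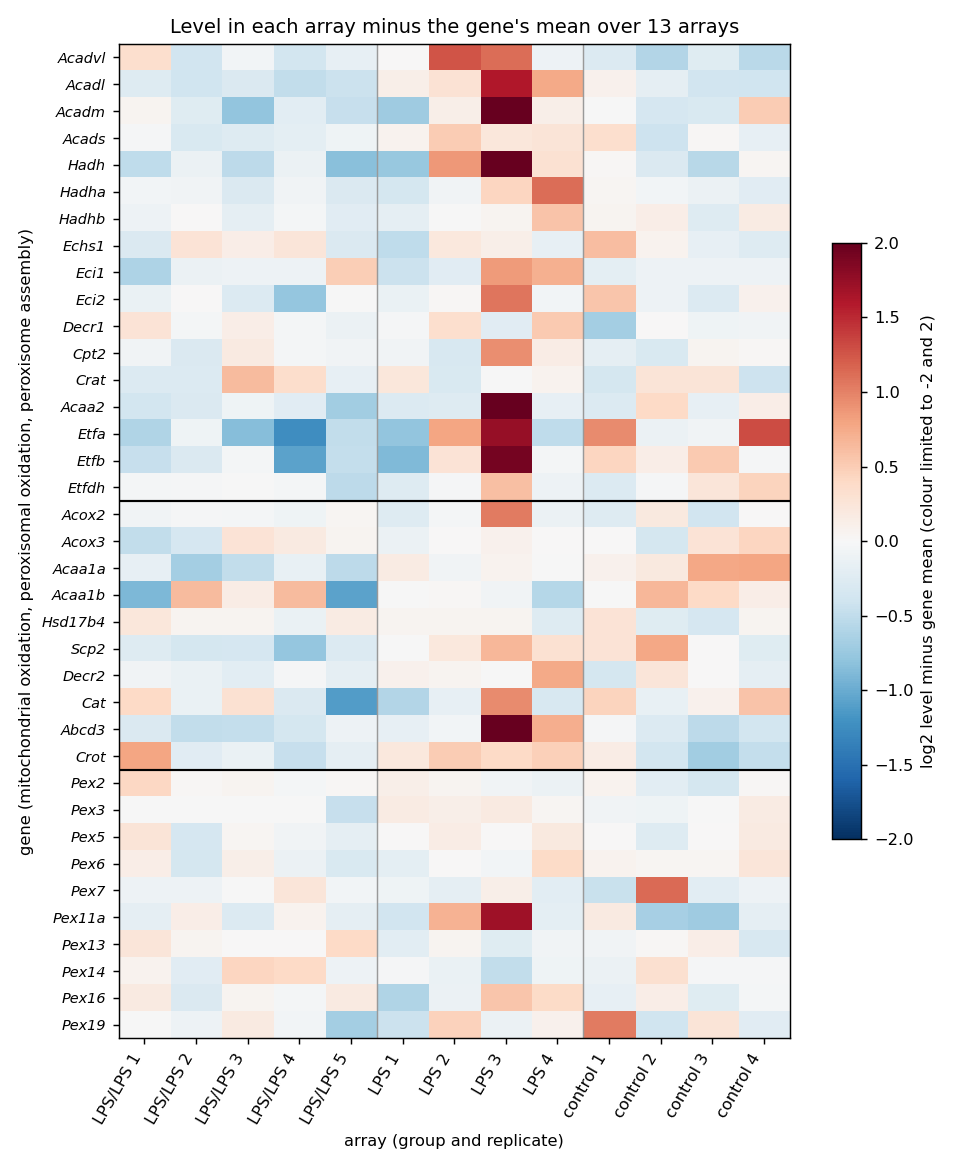
Level of each gene (rows, by role) in each array (columns) minus the gene's mean over 13 arrays, in log2 units; red is above and blue below, with the colour limited to -2 and 2. The column of LPS replicate 3 is red through most mitochondrial rows, and the assembly rows are pale but for single arrays of Pex7, Pex11a and Pex19.

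**Figure D5:**
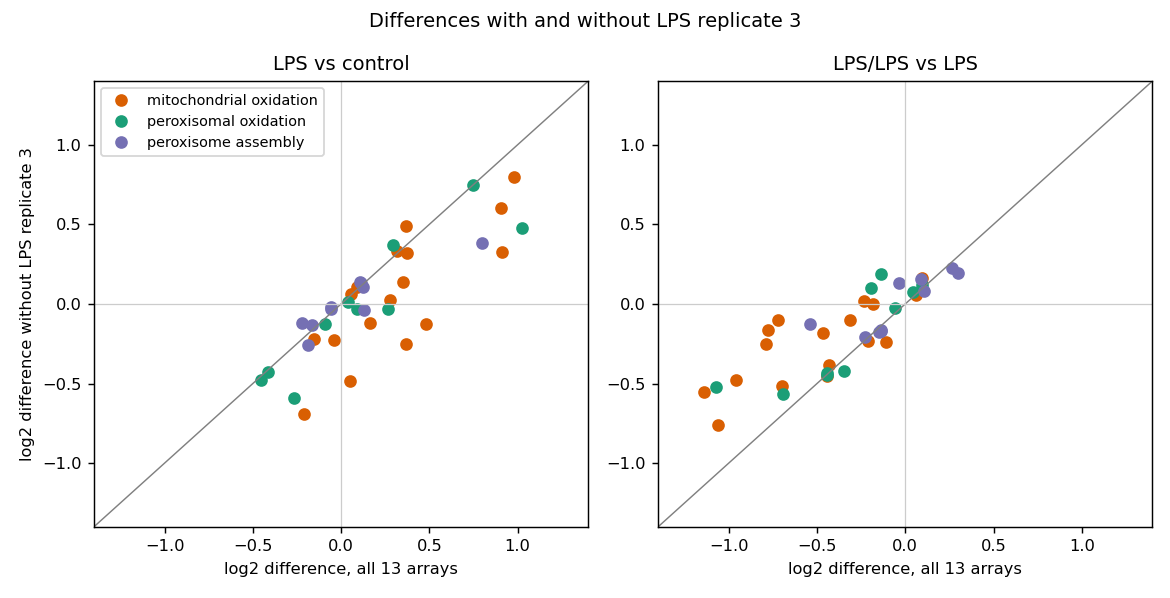
Log2 difference of each gene from the 13 arrays (horizontal axis) against the one without LPS replicate 3 (vertical axis), for LPS against control (left) and LPS/LPS against LPS (right); the diagonal marks equality. In LPS vs control many mitochondrial genes fall below the diagonal, and their median moves to 0.061, against 0.32 with all arrays.

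Other genes of these pathways and their regulators were read from lists chosen with the set. Of 61 further oxidation and peroxisome genes, 0 passed an adjusted p of 0.05 in any comparison. At an unadjusted p under 0.05, 5 (8.20%) were higher and 2 (3.28%) lower in LPS than in control, against 3.49% and 2.95% of all genes. In LPS/LPS against control 1 (1.64%) was higher and 4 (6.56%) lower, against 2.62% and 2.07%. In LPS/LPS against LPS 0 were higher and 10 (16.4%) lower, against 4.13% and 4.49%. Leaving out LPS replicate 3 gave 3 (4.92%) higher and 4 (6.56%) lower in LPS than in control, against 3.38% and 2.43% of all genes. It gave 2 (3.28%) higher and 6 (9.84%) lower in LPS/LPS than in control, against 2.82% and 2.35%. In LPS/LPS against LPS it gave 0 higher and 5 (8.20%) lower, against 2.67% and 3.49%. In LPS against control, the lowest p-values belonged to Hao1, a peroxisomal hydroxyacid oxidase (-0.59), Ephx2, the soluble epoxide hydrolase (0.92), Acot12, an acyl-CoA thioesterase (1.00), and Cpt1a, the gate for mitochondrial entry (1.01). Leaving out LPS replicate 3 gave -0.61 for Hao1, 0.76 for Ephx2, 1.08 for Acot12 and 0.63 for Cpt1a. In LPS/LPS against control, Acsm2, a medium-chain acyl-CoA synthetase, was at -1.53 (SE 0.28, adjusted p = 0.216). Its levels were 4.43, 4.04, 4.69, 4.84 and 4.44 in LPS/LPS, against 6.75, 5.65, 5.62 and 6.07 in control, with no overlap. Pcca, a subunit of propionyl-CoA carboxylase, was at 0.50, Pecr, a peroxisomal enoyl-CoA reductase, at -0.80, and Agps, of ether lipid synthesis, at -0.56. In LPS/LPS against LPS, Ehhadh, the other peroxisomal bifunctional enzyme, was at -1.60 (SE 0.34, adjusted p = 0.130), with Ephx2 at -0.99, Cpt1a at -1.18 and Acsm2 at -0.80. These were -1.23 for Ehhadh, -0.84 for Ephx2, -0.79 for Cpt1a and -0.61 for Acsm2 without LPS replicate 3.

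Of 24 regulators and genes that answer to PPAR alpha, 0 passed an adjusted p of 0.05 in any comparison. At an unadjusted p under 0.05, 5 (20.8%) were higher and 1 (4.17%) lower in LPS than in control, against 3.49% and 2.95% of all genes. Without LPS replicate 3 these were 4 (16.7%) and 1 (4.17%), against 3.38% and 2.43%. Pdk4, which restrains pyruvate use, differed by 2.00 (SE 0.37, adjusted p = 0.0995), with levels of 3.88, 4.73, 4.29, 4.03 and 4.28 in LPS/LPS, 5.31, 7.11, 5.00 and 6.17 in LPS, and 4.16, 4.20, 3.76 and 3.47 in control. Plin2, a coat protein of lipid droplets, differed by 1.91 (SE 0.30, adjusted p = 0.0536), with levels of 3.30, 3.85, 4.06, 3.62 and 3.98 in LPS/LPS, 4.46, 5.40, 5.49 and 6.35 in LPS, and 3.54, 3.71, 3.43 and 3.37 in control. For both genes every LPS array lay above every control array. Angptl4, an inhibitor of lipoprotein lipase, differed by 1.03 (SE 0.17, adjusted p = 0.0688), and Esrra, a nuclear receptor of mitochondrial genes, by -0.40 (SE 0.13, adjusted p = 0.590). The differences without LPS replicate 3 were 2.30 for Pdk4 and 1.89 for Plin2. In LPS/LPS against LPS, they were -1.66 for Pdk4, -1.66 for Plin2, -0.62 for Angptl4 and 0.52 for Esrra, with 3 of the 24 (12.5%) higher and 3 (12.5%) lower, against 4.13% and 4.49% of all genes. In LPS/LPS against control, 1 (4.17%) was higher (Angptl4, 0.41) against 2.62% of all genes and 0 lower against 2.07%, and Acaca, Ppard and Rxra, next by p, were at 0.25, -0.25 and -0.21.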

How the data were processed

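Gene expression was measured on 13 arrays from 2 ng of RNA per sample. The authors deposited log2 values per probe set, and RMA and Partek 6.6 are named per the submitters' processing notes; the background step, any scaling between arrays and the build used are not given in these sources. Of 41345 probe sets, 23521 had 1 symbol in the platform annotation, 1814 had several and 16010 had none, and only the first kind was used, 1 probe set per gene. One limma fit (3.58.1, R 4.3.3; lmFit, eBayes) over all groups gave the 3 comparisons, with Benjamini-Hochberg adjustment over 22180 genes and a threshold of 0.05.

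No counts or scanner files were used, so depth and detection calls have no value here, and the number of arrays limits precision. In simulated data for 22180 genes with 50 changed at each size, 62% of log2 changes of 1 were recovered for LPS vs control, 58% for LPS/LPS vs control and 74% for LPS/LPS vs LPS. At a change of 0.5 the shares were 8%, 14% and 6%. False calls in the simulated data numbered 9, 6 and 5 in the same order. The mitochondrial genes of the set had a median SD of 0.64 in LPS, against 0.26 over all genes. The recovered shares therefore need not hold for them, and this was not tested. Changes as large as 3 were also simulated, and the cutoff under Benjamini-Hochberg adjustment depends on how many genes change. The measured LPS vs control comparison called 0 of 22180 genes, so the shares need not hold for other genes either.

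The genes, lists, tests and settings were chosen with earlier results of these data known. In each comparison, the 3 genes of each role with the lowest p are given by array, and up to 4 genes from each further list; others are named by range or mean, and genes whose counts are given are named after their values were seen. The background reference and the values without LPS replicate 3 were also chosen after seeing the data. Alternatives covered the probe set rule, normalization, array spread, dim genes, array weights, moderation, the groups fitted, a replicate block and leaving out each array.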

Additional observations from a re-analysis of the deposited data

Results flagged for a closer look

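Within-group gaps were examined for 111 sets of arrays (37 genes in 3 groups), and 15 (13.5%) held 1 array far from the rest by Dixon's criterion. Its nominal rate of about 1 in 20 holds for normal values without ties. The share over all genes was not counted, so no excess in this set can be read from the 15. LPS replicate 3 was the high array for Acaa2 at 6.99 (next 4.58), Acox2 at 5.29 (next 4.20) and Eci2 at 4.58 (next 3.53). LPS replicate 4 was high for Decr2 at 5.05 and low for Acaa1b at 6.02 and for Hsd17b4 at 4.02, where the other LPS arrays shared the value 4.32. LPS/LPS replicate 1 was high for Crot at 5.58 and Pex2 at 3.55. LPS/LPS replicate 4 was low for Scp2 at 3.48 and high for Pex7 at 2.91. LPS/LPS replicate 5 was low for Etfdh at 3.26 and Pex3 at 3.89. Control replicate 1 was low for Decr1 at 4.76 and for Eci1 at 3.92, where the other control arrays shared 4.02, and control replicate 4 was high for Pex6 at 5.57. Arrays with equal values leave no spread, so a small gap can be marked this way.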

How the results depend on the processing

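The number of the 37 genes called was 0 under every setting run, except without LPS replicate 1, where Acadl passed in LPS/LPS vs LPS (1 gene). Counts over all genes moved more. For LPS vs control, 0 as reported, the count was 5 with quantile normalization, 1 with the spread class as a block, 9 among genes above the median level, 30 with array weights, 7 with trended robust moderation, and 0 to 24 leaving out 1 array (24 without LPS replicate 1, 5 without LPS replicate 3). For LPS/LPS vs control, 2 as reported, it was 0 testing every probe set, 4 with quantile normalization, 1 with arrays centred, 7 with spread as a covariate, 0 with the spread class as a block, 1 above the median level, 0 without moderation, 0 with the 2 groups alone, and 0 to 3 leaving out 1 array. For LPS/LPS vs LPS, 14 as reported, it was 7 testing every probe set, 9 with quantile normalization, 0 with spread as a covariate, 4 with the spread class as a block, 41 with array weights, 0 without moderation, 2 with the 2 groups alone, and 5 to 96 leaving out 1 array (96 without LPS replicate 1). The cause of these shifts was not tested.

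Deviations of same-numbered arrays had correlations of -0.35 to 0.22 over 12 pairs (3 above 0.1), with a median of 0.036. Over the 44 other pairs between groups the range was -0.33 to 0.54, with a median of 0.017. The labels name no pairing, and such correlations cannot show whether the numbers pair samples. With a replicate block the counts over all genes were 3, 0 and 4, in the order above, and 0 of the 37 genes were called in each. The median difference of the 37 genes ranged, leaving out 1 array, from -0.017 to 0.19 for LPS vs control, from -0.12 to -0.032 for LPS/LPS vs control and from -0.33 to -0.17 for LPS/LPS vs LPS. With array spread as a covariate, 19, 14 and 13 of the 37 differences were above 0, and the counts at an unadjusted p under 0.05 stand beside each comparison. The share of all genes above 0 was not counted at this setting. Single-gene differences turned sign in 40, 30 and 41 gene and setting combinations, none of them called. They were not all small: Acadm was 0.48 in LPS vs control and -0.13 without LPS replicate 3, and -0.78 in LPS/LPS vs LPS and 0.018 with spread as a covariate.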
